A study of Mus musculus with 5 samples.

Results

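The liver RNA of 9 genes for hepatokines and other secreted metabolic hormones was followed across 5 pools of mice: Fgf21, Gdf15, Inhbe, Angptl4, Angptl6, Lect2, Ahsg, Fetub and Cfd. They were chosen by name, as the non-control probes whose gene name in the scanner files equals a member, which gave 11 of 41174 probes and 9 of 28630 gene names. Fgf21 and Angptl6 had 2 probes each and the other genes had 1. All 11 probes were well above background on all 5 arrays, none was flagged as an outlier or saturated, and no filter removed a member.

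The livers came from male C57BL/6J mice, an inbred laboratory strain, aged 25 weeks. Liver RNA of the 5 mice of a group was combined and put on 1 array. The control group was untreated. HFHFr-F mice ate a high-fat, high-fructose diet for 20 weeks and had severe insulin resistance, per the labels. HFHFr-FA mice ate it for 16 weeks and then for 4 weeks with all-trans retinoic acid added, and were labelled as free of insulin resistance with slight steatosis. HFHFr-N mice ate it for 16 weeks, then normal diet for 4 weeks, and were insulin resistant. HFHFr-NA mice received normal diet with all-trans retinoic acid in those 4 weeks and had recovered. All-trans retinoic acid is the active vitamin A metabolite that binds nuclear retinoic acid receptors.

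Hepatokines are proteins that the liver releases into blood and that act on other tissues. FGF21 and GDF15 are stress-induced hormones that act through receptors in the brain, and FGF21 also acts on adipose tissue. Activin E, encoded by Inhbe, is a liver activin that restrains fat breakdown in adipocytes, and ANGPTL4 inhibits lipoprotein lipase, the enzyme that releases fatty acids from circulating triglyceride. The fetuins and LECT2 have been linked to insulin resistance, and adipsin, the product of Cfd, is a complement protease made mainly by fat cells.

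Single arrays allow no test, p-value or standard deviation between mice, and every statement of higher or lower describes these pools. A level is the processed signal of a probe as a multiple of its array's 75th percentile, a scale on which 1 probe may be compared across arrays but not with another probe. Sums of levels over a marker list therefore weight each gene by the brightness of its probe and are not amounts of a cell type. They include signals below background. Probes spotted 10 times and well above background, 122 to 137 of them per array, had a median standard deviation between spots of 0.0623 to 0.0782 on the log2 scale. That spread covers spots of 1 array only. Levels are called within the spot spread where their gap was at most 2 standard deviations of a difference between arrays computed from it. Each of the 11 member probes had 1 spot, so this spread is that of other probes and was not measured on a member. Its 90th percentile over those probes was 0.160 to 0.203, so a gap called outside the spot spread may lie within that of a noisier probe. Control, HFHFr-F, HFHFr-N and HFHFr-NA shared a slide and a scan that did not hold HFHFr-FA, so in every pair with HFHFr-FA the slide cannot be told apart from the group. The 10 matched hepatocyte markers were well above background on all 5 arrays. Their summed level was 3981.8 in control, 3180.1 in HFHFr-F, 3439.9 in HFHFr-FA, 3862 in HFHFr-N and 4429.8 in HFHFr-NA. Alb and Fgb made up most of that sum on every array. The 75th percentile that divides each level was 173.9 in control, 222.9 in HFHFr-F, 211.7 in HFHFr-FA, 172.5 in HFHFr-N and 179.8 in HFHFr-NA. In bulk tissue, fewer cells of a type, less RNA per cell and the scaling of the array cannot be told apart.

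The 9 genes differed in how much they varied. Fgf21, Gdf15, Cfd and Lect2 spanned 4.62-fold, 4.51-fold, 3.11-fold and 2.31-fold between their lowest and highest array. Inhbe, Fetub, Angptl4, Angptl6 and Ahsg spanned 1.25-fold to 1.69-fold. Of 13132 genes measured on all 5 arrays 16.0% spanned 2-fold or more. The median range was 0.76 for the 9 genes and 0.57 for those 13132 genes, on the log2 scale. Because the members were chosen with earlier results of these data known, these values describe the 9 genes and test nothing about them. The 4 wide-ranging genes differed in pattern: the highest array was HFHFr-FA for Fgf21, HFHFr-F for Gdf15 and Lect2, and HFHFr-N for Cfd.

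**Figure D1:**
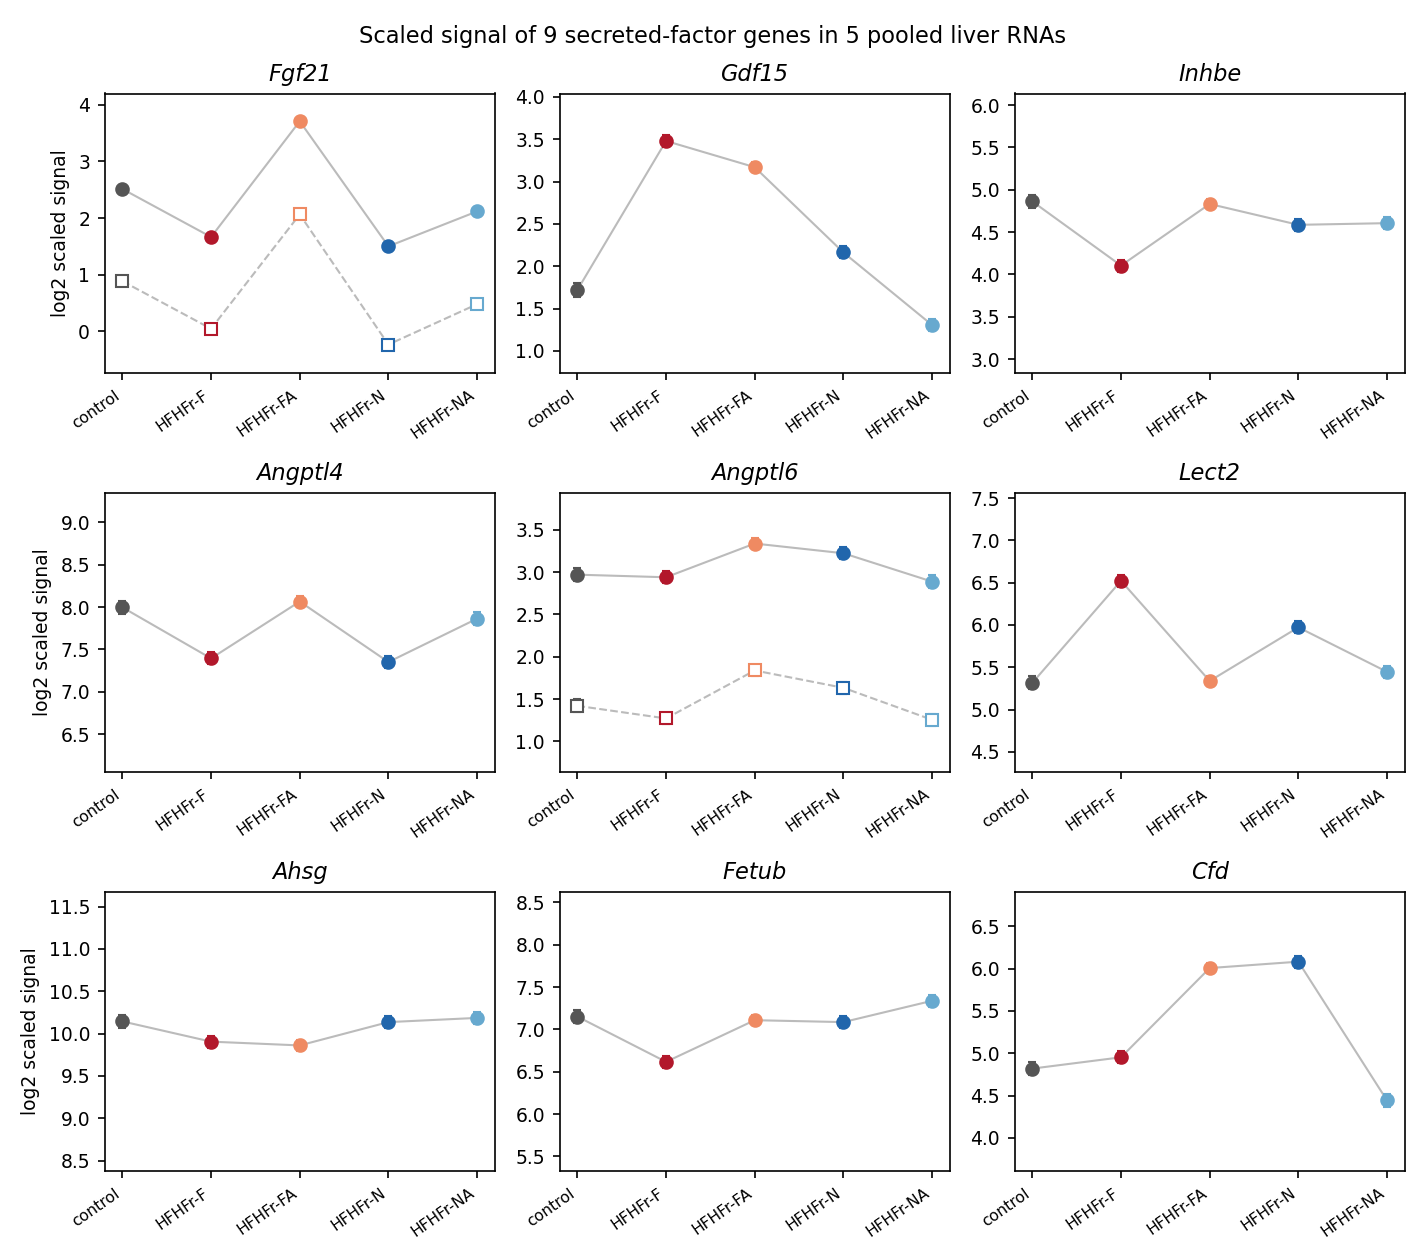
Log2 scaled signal (y axis, log scale) of each of the 9 genes on the 5 arrays (x axis, 1 array of pooled RNA per group). Filled circles are the probe that stands for the gene, open squares the other probe of Fgf21 and of Angptl6, bars the median standard deviation between replicate spots of that array, and grey lines only join points of a probe. Fgf21 peaks in HFHFr-FA on both probes, Gdf15 is high in HFHFr-F and HFHFr-FA, and Cfd is high in HFHFr-FA and HFHFr-N.

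By pair of arrays, HFHFr-F held 2 of the 9 genes above control by 2-fold or more, Gdf15 and Lect2, and 0 below. Of 14630 genes tested in that pair 8.61% were 2-fold apart, 5.38% higher and 3.23% lower. The median log2 ratio was -0.24 for the 9 genes and -0.08 for all genes tested. HFHFr-FA against HFHFr-F had Fgf21 and Cfd higher and Lect2 lower, where 5.59% of 14929 genes were apart, 2.78% higher and 2.81% lower. The medians there were 0.49 and 0.03. HFHFr-N against control had Cfd higher and Fgf21 lower, where 1.98% of 14506 genes were apart, 1.14% higher and 0.834% lower. HFHFr-NA against HFHFr-N had Cfd lower, where 2.84% of 14874 genes were apart, 1.51% higher and 1.32% lower.

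The return to normal diet without retinoic acid, HFHFr-N against HFHFr-F, left Cfd higher and Gdf15 lower, where 5.78% of 14801 genes were apart, 2.13% higher and 3.64% lower. HFHFr-FA against control had Fgf21, Gdf15 and Cfd higher, where 6.41% of 14797 genes were apart, 4.49% higher and 1.92% lower. HFHFr-NA against control had 0 of the 9 genes past 2-fold, where 3.44% of 14727 genes were, 2% higher and 1.44% lower. The 9 ratios there ran from -0.41 for Gdf15 to 0.19 for Fetub. Scaling moved the share of higher genes among all those called. Genes higher in HFHFr-F than in control were 62.5% of those called, and 74.3% after cyclic loess. For HFHFr-FA against HFHFr-F the share was 49.8%, and 35.9% after median centring. For HFHFr-N against HFHFr-F it was 37.0%, and 24.4% after cyclic loess. For HFHFr-NA against control it was 58.2%, and 49.5% after median centring. The pairs share arrays, so their ratios are not independent, and counts of 1 to 3 among 9 genes say little against these shares.

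**Figure D2:**
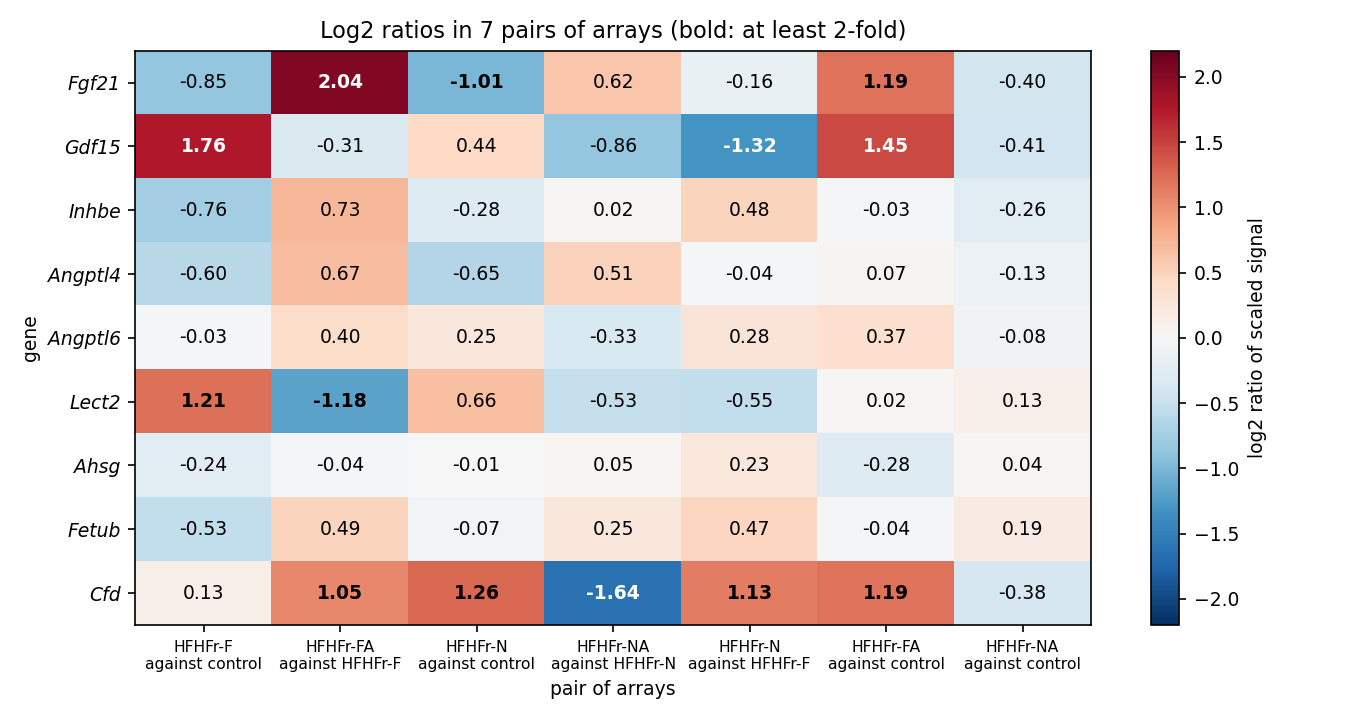
Log2 ratio of scaled signal (colour and printed value) of the 9 genes (rows) in 7 pairs of arrays (columns), with values of at least 2-fold in bold. The HFHFr-NA against control column holds no bold value, and Cfd is bold in 5 of the 7 columns.

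Fgf21 encodes fibroblast growth factor 21, a fasting and stress hormone of the liver. Its probes lie on chromosome 7 (mm9, minus strand), one at 52869305 to 52869364 and the other, of which the 60 bases are spread over 615 bases of genome, at 52869680 to 52870294. The part of the transcript that a probe lies in was not analysed here. The second is shown because it repeats the finding of the first at a separate place on the chromosome, and its base composition differs, with 51.7% G or C against 20%.
Fgf21 probe A_51_P315925: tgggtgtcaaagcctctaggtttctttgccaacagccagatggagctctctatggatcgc

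The Fgf21 level was 5.71 in control, 3.17 in HFHFr-F, 13.1 in HFHFr-FA, 2.83 in HFHFr-N and 4.34 in HFHFr-NA on the first probe. On the second it was 1.85, 1.03, 4.18, 0.852 and 1.40 in the same order. Both probes placed the arrays in 1 order, HFHFr-FA highest, then control, HFHFr-NA, HFHFr-F and HFHFr-N. HFHFr-F and HFHFr-N lay within the spot spread of each other on the first probe, with a gap of 0.16, and outside it on the second. HFHFr-FA was 4.12-fold above HFHFr-F (log2 ratio 2.04, and 2.02 on the second probe), rank 32 from the highest of 14929 genes tested. It was also 2.29-fold above control (1.19). The pools without retinoic acid were below control, HFHFr-F by 1.80-fold (-0.85) and HFHFr-N by 2.02-fold (-1.01). In HFHFr-NA Fgf21 was 1.53-fold above HFHFr-N (0.62) and 1.32-fold below control (-0.40). Over the 7 pairs the probes differed by at most 0.11 in log2 ratio. The 2-fold call for HFHFr-N against control was lost with normexp background and quantile normalization, where the ratio was -0.91.

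The list of FGF21 receptors and regulators held 12 genes. In HFHFr-F against control 1 of 11 tested was at least 2-fold lower, Klb, the coreceptor beta-Klotho that FGF21 needs, at -1.23, and 0 were higher. The list's median was -0.39, where the median of all genes tested was -0.08. In HFHFr-FA against HFHFr-F 1 of 11 was higher, Mlxipl (ChREBP, a sugar-sensing transcription factor that induces Fgf21), at 1.22, and Klb had a ratio of 0.21. That median was 0.34, against 0.03 for all genes. On normal diet with retinoic acid, 0 of 12 reached 2-fold and Mlxipl had a ratio of -0.02. Fgfr2, a receptor of the same family, had ratios between -0.75 and 0.05 over the 7 pairs.

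PPARA, the fasting-activated nuclear receptor, is a known inducer of Fgf21 and of Angptl4. Among 21 of its targets 4 were lower and 1 was higher in HFHFr-F than in control, the median being -0.44. The lower ones were Ehhadh at -2.25 and Cyp4a14 at -1.45, enzymes of fatty acid oxidation, with Cyp4a10 (-1.53) and Acot1 (-1.19), which were picked out after their values were seen. The higher one was Pdk4, a kinase that restrains glucose oxidation, at 1.03. Of the same 21, 4 were higher in HFHFr-FA than in HFHFr-F and 0 lower, the median being 0.28: Ehhadh (1.14), Cyp4a14 (1.01), Pdk4 (1.58) and, picked out after the fact, Acot1 (1.34). In HFHFr-NA against HFHFr-N 0 of 21 reached 2-fold, with a median of 0.14.

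Fgf21 and Inhbe are also known targets of ATF4, the transcription factor of the amino acid and endoplasmic reticulum stress responses. The 250 bases before the RefSeq start of each gene (GRCm38.p6) are shown because both windows hold the ATF4-type amino acid response letters TGATGNAA, read on the opposite strand and printed in capitals. In Fgf21 they lie 139 to 132 bases before the start on chr7:45615491-45615740, and in Inhbe 181 to 174 bases before it on chr10:127351849-127352098, both genes on the minus strand.
Fgf21 promoter: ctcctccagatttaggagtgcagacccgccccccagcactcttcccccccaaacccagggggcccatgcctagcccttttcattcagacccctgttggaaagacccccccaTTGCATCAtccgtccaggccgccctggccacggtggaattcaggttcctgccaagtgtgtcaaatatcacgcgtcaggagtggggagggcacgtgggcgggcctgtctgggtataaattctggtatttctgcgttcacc
Inhbe promoter: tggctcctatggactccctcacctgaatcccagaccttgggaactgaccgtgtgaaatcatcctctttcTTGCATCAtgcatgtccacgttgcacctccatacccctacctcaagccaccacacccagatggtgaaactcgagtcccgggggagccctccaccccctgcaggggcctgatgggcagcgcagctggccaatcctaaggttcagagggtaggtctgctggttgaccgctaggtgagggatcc

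Windows of 8 of the 9 genes were in the RefSeq table, 10 windows in all since Gdf15 and Fetub had 2. The letters TGATGNAA, searched on both strands, were found in 3.45% of 32851 windows of that length and in no other window of the 9 genes. The E-box CACGTG, in 6.02% of windows, was found 50 to 45 bases before the start of Fgf21 and 83 to 78 bases before 1 of the Gdf15 starts. The nuclear receptor core letters AGGTCA, in 14% of windows, were found in the other Gdf15 window, 55 to 50 bases before its start. Their DR1 direct repeat, which contains these letters and stood in 0.0335% of windows, was in none of the 10. Angptl4, the gene without a window in the table, was not searched. A match says only that these letters stand in the window.

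The list of the amino acid and integrated stress response held 26 genes. Where Fgf21 was 4.12-fold higher, in HFHFr-FA against HFHFr-F, 0 of 21 tested were higher and 3 were lower, the median being 0.04. The lower ones were Asns, asparagine synthetase, at -1.05, and, picked out after their values were seen, Psat1 (-1.11) and Vldlr (-1.70). Against control, HFHFr-F had 6 of 21 above 2-fold and 3 below, the median being 0.21. Atf3, a stress-induced transcription factor, was higher by 3.43 and Nupr1, a stress-induced chromatin protein, by 2.41. Asns was lower there, at -1.17, as were Cth (-1.77) and Atf5 (-1.02), both picked out after their values were seen. In HFHFr-NA against HFHFr-N, where Fgf21 had a ratio of 0.62 and Inhbe of 0.02, 1 of 20 was higher, Asns at 3.13, and 1 was lower, Ppp1r15a at -1.09, also picked out afterwards. The list's median there was 0.01.

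Gdf15 encodes growth differentiation factor 15, a stress-induced member of the TGF-beta family that lowers food intake through the hindbrain receptor GFRAL. Its single probe lies on chromosome 8 (mm9, minus strand, 73153471 to 73153530) and is shown because the result rests on it alone.
Gdf15 probe A_52_P532982: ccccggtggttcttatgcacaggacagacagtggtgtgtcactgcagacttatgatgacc

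The Gdf15 level was 3.29 in control, 11.2 in HFHFr-F, 9.0 in HFHFr-FA, 4.48 in HFHFr-N and 2.47 in HFHFr-NA. The pools still on the high-fat, high-fructose diet were the 2 highest, and every gap between neighbours in the order exceeded the spot spread. HFHFr-F was 3.39-fold above control (log2 ratio 1.76, rank 194 from the highest of 14630 genes) and HFHFr-FA 2.73-fold above control (1.45). Return to normal diet left HFHFr-N 2.49-fold below HFHFr-F (-1.32) and 1.36-fold above control (0.44). With retinoic acid the level was 1.24-fold lower on the diet (-0.31) and 1.81-fold lower on normal diet (-0.86). HFHFr-NA was 1.33-fold below control (-0.41).

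The summed level of macrophage and Kupffer cell markers was also highest in the pools still on the diet, though single markers differed. Over 12 matched genes it was 120.1 in control, 241 in HFHFr-F, 219.8 in HFHFr-FA, 153 in HFHFr-N and 114 in HFHFr-NA. On all arrays 11 were well above background, and Itgam was so on none. Against control, 4 of 11 tested were at least 2-fold higher in HFHFr-F (median 0.95) and 3 in HFHFr-FA (median 0.80). In HFHFr-F 0 were at least 2-fold lower, and 7 were under 2-fold. Lyz2 and Cd5l made up most of the sum on every array. The resident Kupffer cell marker Timd4 had its lowest array in HFHFr-F, with a ratio of -0.87 to control, and Clec4f and Vsig4 had ratios of 0.13 and 0.05 there. These markers were picked out after their values were seen, and the part of these cells in the Gdf15 values was not tested.

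Inhbe encodes the subunit of activin E, and its probe lies on chromosome 10 (mm9, minus strand, 126786719 to 126786778). Its level was 29.1 in control, 17.2 in HFHFr-F, 28.5 in HFHFr-FA, 24.0 in HFHFr-N and 24.4 in HFHFr-NA. HFHFr-F was the low array. Control and HFHFr-FA differed by less than the spot spread, as did HFHFr-N and HFHFr-NA. HFHFr-F was 1.69-fold below control (-0.76) and 1.66-fold below HFHFr-FA (0.73 for HFHFr-FA against HFHFr-F), neither reaching 2-fold. With retinoic acid on normal diet the ratio was 0.02. The sum of the 10 hepatocyte markers was also lowest in HFHFr-F. Their median ratio was -0.41 in HFHFr-F against control, with 8 below 0 and 2 above. In HFHFr-FA against HFHFr-F it was 0.37, with 6 above 0 and 4 below, so the markers did not move as 1. The part of these markers in the Inhbe values, and in the Angptl4 and Fetub values below, was not tested.

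The activin and inhibin list held 17 genes. Inhbc, the related liver subunit of activin C, had a ratio of -0.94 in HFHFr-F against control and 0.63 in HFHFr-FA against HFHFr-F, the directions seen for Inhbe. Of 14 tested in HFHFr-F against control 1 was higher, Fst (follistatin, a secreted activin inhibitor), at 1.41, and 0 were lower, with a median of -0.30. In HFHFr-FA against HFHFr-F 1 of 14 was higher, Inhba (the activin A subunit), at 1.02, with a median of 0.28. Fst was lower by -2.07 in HFHFr-N against HFHFr-F, the 1 gene of 14 past 2-fold there. The count past 2-fold was 0 of 14 in HFHFr-NA against HFHFr-N and in HFHFr-N against control.

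Angptl4 encodes an inhibitor of lipoprotein lipase, and its probe lies on chromosome 17 (mm9, minus strand, 33911880 to 33911939). Its level was 255 in control, 168 in HFHFr-F, 268 in HFHFr-FA, 163 in HFHFr-N and 233 in HFHFr-NA. The 3 high arrays were control and both retinoic acid pools, whose neighbours in the order lay within the spot spread, and the low arrays HFHFr-F and HFHFr-N also lay within it. That nearness of the high arrays depended on the scaling. HFHFr-FA against control was 0.07, but 0.39 after normexp background and quantile normalization and 0.24 after cyclic loess, both beyond the spot spread. HFHFr-F was 1.52-fold (-0.60) and HFHFr-N 1.57-fold (-0.65) below control. With retinoic acid the level was 1.59-fold higher on the diet (0.67) and 1.43-fold higher on normal diet (0.51). None reached 2-fold.

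Angptl6, also called angiopoietin-related growth factor, encodes a secreted relative that raises energy expenditure in mice. Its probes on chromosome 9 (mm9, minus strand) lie at 20678326 to 20678385 and, with the 60 bases spread over 1153 bases of genome, at 20678511 to 20679663. Both are shown because they give separate readings of a gene that varied little.
Angptl6 probe A_51_P259571: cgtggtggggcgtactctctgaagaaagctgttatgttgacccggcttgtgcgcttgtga
Angptl6 probe A_52_P319199: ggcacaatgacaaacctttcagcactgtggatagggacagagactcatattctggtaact

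The Angptl6 level was 7.83 in control, 7.67 in HFHFr-F, 10.1 in HFHFr-FA, 9.33 in HFHFr-N and 7.40 in HFHFr-NA on the first probe, and 2.68, 2.41, 3.58, 3.10 and 2.39 on the second. Both probes gave 1 order, with HFHFr-FA and HFHFr-N above control. The log2 ratio in HFHFr-FA against HFHFr-F was 0.40 on the first and 0.57 on the second, and the probes differed by at most 0.17 in any pair. In HFHFr-NA against HFHFr-N it was -0.33 and -0.38. Among 13 other genes of the ANGPTL family and of lipoprotein lipase control, 2 of 10 tested were higher in HFHFr-F against control, Lpl (lipoprotein lipase itself) at 1.63 and Apoc2 (its activating apolipoprotein) at 1.05. The 1 of 11 lower in HFHFr-FA against HFHFr-F was Apoc2 at -1.01, and Lpl had a ratio of -0.75. Angptl8, a feeding-induced inhibitor of the lipase, had ratios of -0.49 and -0.70 in these 2 pairs and -1.18 in HFHFr-FA against control.

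Lect2 encodes leukocyte cell-derived chemotaxin 2, a hepatokine that impairs insulin signalling in muscle of mice. Its probe lies on chromosome 13 (mm9, minus strand, 56643950 to 56644009). The level was 39.9 in control, 91.9 in HFHFr-F, 40.5 in HFHFr-FA, 62.8 in HFHFr-N and 43.6 in HFHFr-NA. HFHFr-F and HFHFr-N, the pools fed the HFHFr diet and given no retinoic acid, were the 2 highest. Neighbours among the other 3 lay within the spot spread. HFHFr-F was 2.31-fold above control (1.21) and HFHFr-FA 2.27-fold below HFHFr-F (-1.18, rank 268 from the lowest of 14929). HFHFr-FA then stood at a ratio of 0.02 to control. On normal diet HFHFr-N was 1.58-fold above control (0.66) and HFHFr-NA 1.44-fold below HFHFr-N (-0.53).

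Lect2 is a known beta-catenin target in mouse liver, and 12 genes of the pericentral WNT program were listed. In HFHFr-F against control 1 of 12 was higher, Rhbg (an ammonium transporter) at 1.38, and 1 lower, Oat (ornithine aminotransferase) at -1.18, with a median of -0.35. Rhbg had a ratio of -1.15 in HFHFr-FA against HFHFr-F, the 1 of 12 past 2-fold. Rnf43, a membrane ubiquitin ligase that limits WNT signalling, had a ratio of -0.63 there and -0.24 in HFHFr-F against control. The list's median in HFHFr-FA against HFHFr-F was -0.09, where that of all genes was 0.03. Tbx3, Znrf3, Axin2 and Cyp1a2 had ratios above 0 in that pair, from 0.11 to 0.32, and the other listed genes had ratios below 0. In HFHFr-NA against HFHFr-N 0 of 12 reached 2-fold.

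Ahsg and Fetub encode fetuin-A and fetuin-B, liver plasma proteins of the cystatin superfamily. The Ahsg probe lies on chromosome 16 (mm9, plus strand) at 22899415 to 22899474 and the Fetub probe on the same strand at 22939736 to 22939795. The Ahsg level was 1131 in control, 959 in HFHFr-F, 929 in HFHFr-FA, 1125 in HFHFr-N and 1164 in HFHFr-NA. The pools still on the diet were the 2 lowest, and their gap to each other was within the spot spread. Only 14.5% of the genes measured on all arrays had a range smaller than its 1.25-fold. The ratio was -0.24 in HFHFr-F against control and -0.04 in HFHFr-FA against HFHFr-F. Both signs depended on the scaling: the first was 0.16 after normexp background and quantile normalization, and the second 0.02 after cyclic loess.

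The Fetub level was 142 in control, 98.1 in HFHFr-F, 138 in HFHFr-FA, 136 in HFHFr-N and 162 in HFHFr-NA. HFHFr-F alone was low, and the neighbours among the other 4 lay within the spot spread. HFHFr-F was 1.45-fold below control (-0.53) and HFHFr-FA 1.41-fold above HFHFr-F (0.49). Of the 4 listed cystatin relatives 0 reached 2-fold in any of the 7 pairs. Their named members Hrg (histidine-rich glycoprotein), Kng1 and Kng2 (kininogens) had ratios of 0.43, 0.34 and 0.40 in HFHFr-FA against HFHFr-F.

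Cfd encodes adipsin, or complement factor D, the protease that drives the alternative complement pathway by cleaving factor B. Its probe lies on chromosome 10 (mm9, plus strand, 79355302 to 79355361). The level was 28.2 in control, 31.0 in HFHFr-F, 64.3 in HFHFr-FA, 67.7 in HFHFr-N and 21.7 in HFHFr-NA. HFHFr-N and HFHFr-FA were the high arrays, within the spot spread of each other, and HFHFr-F and control were within it too. HFHFr-N was 2.40-fold above control (1.26, rank 83 from the highest of 14506 genes) and 2.19-fold above HFHFr-F (1.13). With retinoic acid the level was 3.11-fold lower on normal diet (-1.64, rank 38 from the lowest of 14874) and 2.08-fold higher on the HFHFr diet (1.05). The second of these was under 2-fold after median centring, at 0.96. Because the first lies within 1 slide and the second does not, the slide was not balanced over them.

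Markers of fat cells and of macrophages were set beside Cfd. Of 11 matched adipocyte markers 5 were below background on all 5 arrays, namely Adipoq, Lep, Retn and Plin1, which define fat cells, and Nnat. The summed level of the list was 17.6 in control, 61.2 in HFHFr-F, 47.8 in HFHFr-FA, 27.4 in HFHFr-N and 26.7 in HFHFr-NA. Plin4 and Fabp4 carried most of it, with levels of 33.5 and 22.7 in HFHFr-F, and other cells than adipocytes express both. The macrophage and Kupffer cell sum was 153 in HFHFr-N and 114 in HFHFr-NA, the pair in which Cfd differed most. There 10 of 11 tested macrophage markers had ratios below 0, with a median of -0.54 where that of all genes was 0.03, and 0 reached 2-fold. In HFHFr-FA against HFHFr-F and HFHFr-N against HFHFr-F, where Cfd was higher, the macrophage medians were -0.11 and -0.54. In HFHFr-N and HFHFr-FA against control, where Cfd was also higher, they were 0.24 and 0.80. The part of either cell type in the Cfd values was not tested. Pancreatic acinar markers, a cell type in which Fgf21 is high in mice, were below background on all arrays for 7 of 12 genes, and their summed level was between 3.79 and 8.39, highest in control. Amy2a5 made up most of that sum on every array, with a level of 7.38 in control. Ctrb1 and Cel had their lowest levels in control, and these genes were picked out after their values were seen. Of the 10 listed genes of the alternative complement pathway, 0 of 7 reached 2-fold in HFHFr-FA against HFHFr-F and 0 of 8 in HFHFr-N against control. In HFHFr-NA against HFHFr-N 1 of 8 was lower, Cd46, a membrane regulator, by a bound of -1.12 and picked out after the fact. Cfp (properdin, a stabiliser) and Cd55 (a membrane inhibitor) had ratios of -0.48 and -0.74 there. HFHFr-N against HFHFr-F, in which Cfd was also higher, had 1 of 8 higher, again Cd46, by a bound of 1.14.

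**Figure D3:**
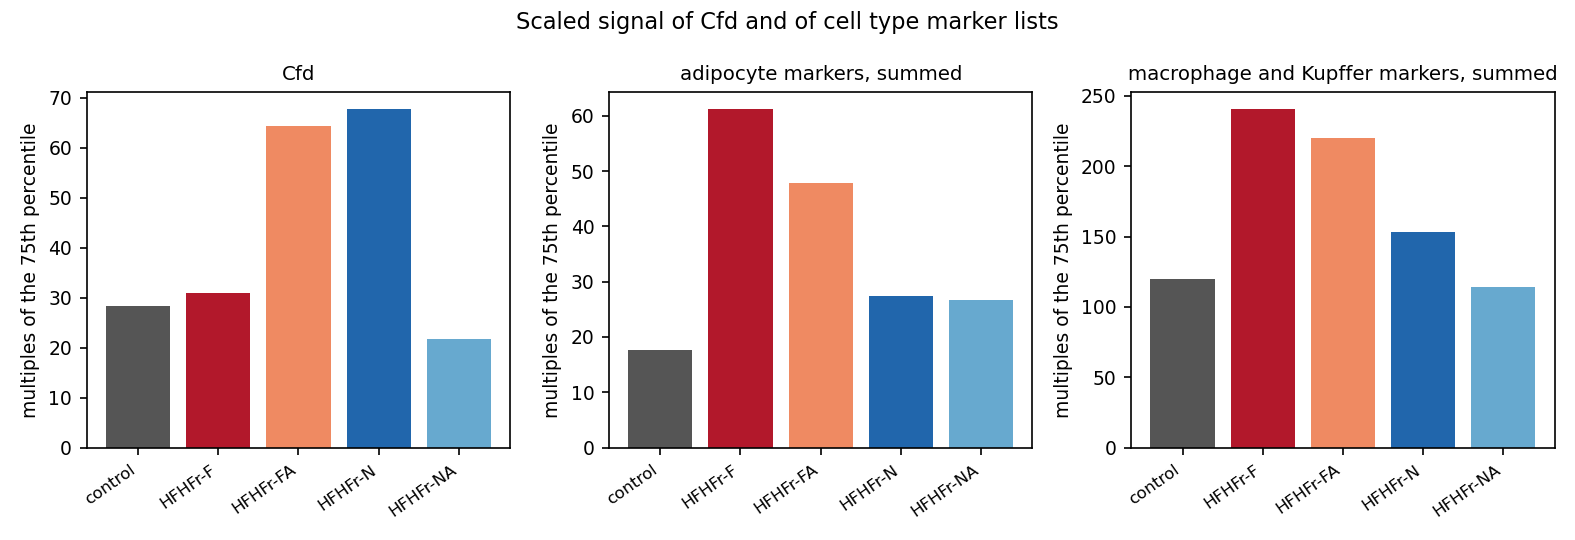
Level of Cfd (left) and summed levels of the adipocyte (middle) and macrophage and Kupffer cell (right) marker lists, in multiples of the array's 75th percentile (y axis from 0), on each of the 5 arrays (x axis, 1 bar per array with no replicate). Cfd is highest in HFHFr-N at 67.7 and HFHFr-FA at 64.3, while both marker sums are highest in HFHFr-F, at 61.2 and 241.

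The pairs HFHFr-FA against HFHFr-F and HFHFr-NA against HFHFr-N share no array and both add retinoic acid. Fgf21 was higher in both (2.04 and 0.62), Angptl4 was higher in both (0.67 and 0.51) and Lect2 lower in both (-1.18 and -0.53). The difference between the pairs was 1.43 for Fgf21, and 1.63% of 13132 genes had a difference as large in size. For Cfd the ratios had opposite signs and differed by 2.69, a difference reached by 0.16% of genes, where 5.34% differed by 2-fold or more. Opposite ratios of at least 2-fold were seen in 20 of the 13132 genes, or 0.152%, with Cfd among them. Gdf15 differed by 0.55 and Ahsg by -0.09. No test of these differences was possible.

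**Figure D4:**
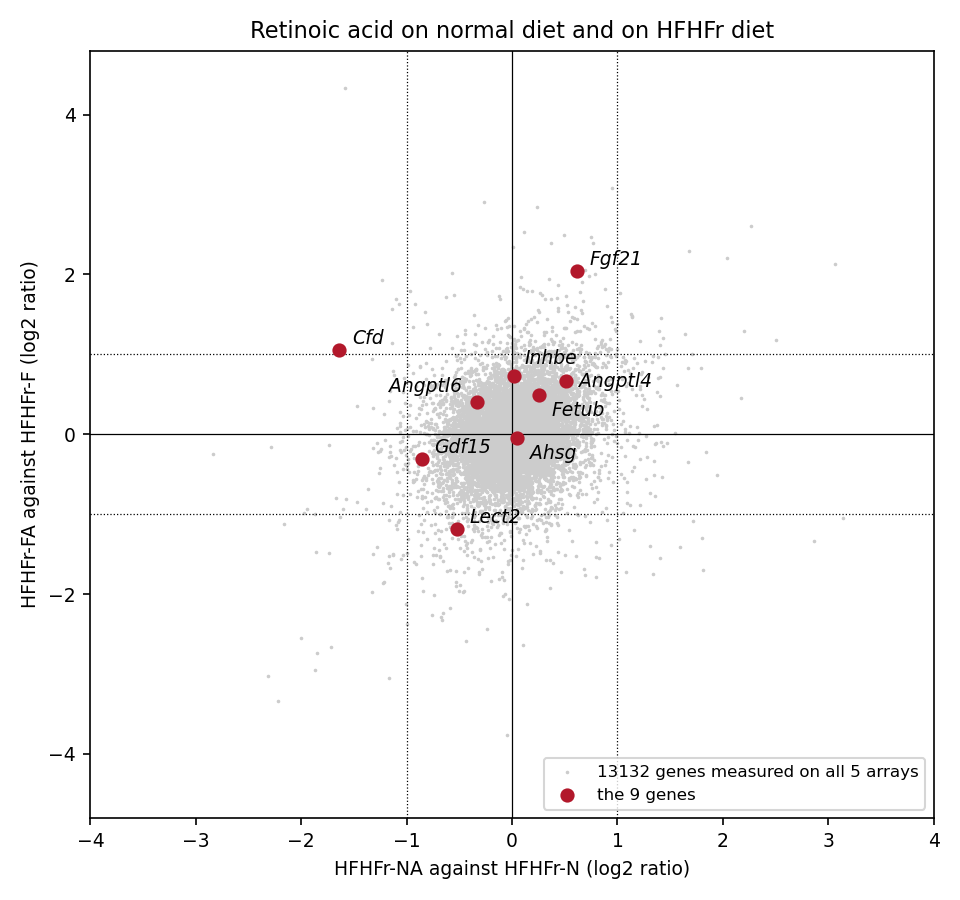
Log2 ratio with retinoic acid on normal diet (x axis, HFHFr-NA against HFHFr-N) and on the HFHFr diet (y axis, HFHFr-FA against HFHFr-F) for 13132 genes measured on all 5 arrays (grey) and the 9 genes (red). Dotted lines mark 2-fold. Fgf21 lies at 0.62 and 2.04, and Cfd at -1.64 and 1.05 in the upper left.

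Other secreted liver factors gave a setting for these genes. Among 17 tested in HFHFr-FA against HFHFr-F 2 were higher and 1 was lower, the median being 0.07. Fgl1, the liver growth factor hepassocin, was higher by 1.52, as was Itih3 (1.03), while Gpnmb, a glycoprotein shed by liver and macrophages, was lower (-1.74); the last 2 were picked out after their values were seen. HFHFr-F against control had 3 of 17 higher and 1 lower. The higher ones, named after their values were seen, were Lcn2, an acute-phase lipocalin, by a bound of 5.02, Gpnmb by a bound of 2.73 and Tsku by 1.27. The lower one was Serpinb1a, a protease inhibitor that promotes beta cell growth in mice, at -2.49, and in HFHFr-NA against HFHFr-N it had a ratio of -0.82.

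Genes whose 5 values ran closest to each member were found by the root mean square difference of centred log2 values over the 5 arrays, among 11000 genes with a RefSeq name. Closest to Fgf21 were Rnf144a, a ubiquitin ligase, at 0.18, E2f8, a cell cycle transcription factor, at 0.24 and Creld2, a protein of the endoplasmic reticulum induced by stress, at 0.26. Closest to Gdf15 were Ear10, an eosinophil-associated ribonuclease, Clec4a3, a myeloid lectin receptor, and Jun, an AP-1 transcription factor, at 0.16 to 0.19. Closest to Lect2 were E2f2, Limd2 and Hnmt, at 0.06 to 0.09, and 47 genes lay within 0.2 of it. No gene lay within 0.2 of Cfd, and the closest were Gpr182, Ppp1r15a and Ms4a1, at 0.25, 0.25 and 0.31. The flatter genes had many near neighbours, 532 within 0.2 for Angptl4 and 5227 for Ahsg, so nearness there says little. Among the 9 genes the closest pair was Inhbe and Fetub, at 0.17.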

How the data were processed

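Liver RNA pooled from 5 mice per group was read on 5 one-colour Agilent arrays. The deposited intensity values are processed signals, background-subtracted and detrended within each array which the file headers credit to Feature Extraction version 10.5.1.1, with probe positions on mm9. The authors deposited them so. The deposited value table holds a ratio, each processed signal over 1 constant per array (165.278 to 214.694, near the 75th percentile of all spots), with a largest deviation of 0.000157% and column medians of 0.0675 to 0.0744. It is not centred and rises with the signal. It served as an alternative.

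Processed signals were taken to log2 and the 75th percentile of the array's non-control, unflagged spots was subtracted (Python 3.11.15, numpy 2.4.6, pandas 2.3.3). Spots of a probe were averaged, and the brightest probe stood for its gene. Genes below background on both arrays of a pair were left out of it. Where a gene was well above background on 1 array only, its ratio is a bound. The dim array was then given the gene's own signal or its lowest signal well above background, whichever was higher. A bound that would change sign was set to 0. Genes at least 2-fold apart were called. The number of arrays, 1 per group, limits the precision, and no test was made. Alternatives used limma 3.58.1 in R 4.3.3.

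The gene names of 24844 probes came from their RefSeq accessions, and 16330 probes kept the name in the file. Of 183 listed symbols 179 were matched, and Enho, Serpina1a, Tf and Adrb3 were not analysed here. From each of 9 pathway lists the rule named up to 3 genes with the widest range among those above background on all arrays, and for each member the 3 genes nearest in pattern. Some genes under this rule are not reported here. The 4 marker lists are given as sums. The members and lists were chosen with earlier results of these data known. Promoter sequences came from RefSeq (GRCm38.p6).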

Additional observations from a re-analysis of the deposited data

Results flagged for a closer look

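Cfd was singled out because its 2 retinoic acid pairs pointed in opposite directions. The log2 ratio was 1.05 on the HFHFr diet and -1.64 on normal diet, a difference of 2.69, or 6.47-fold. Each side rests on single arrays of pooled RNA, the HFHFr-FA array was on another slide, and the difference was not tested.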

How the results depend on the processing

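The 63 member ratios were recomputed under 7 alternatives. Of 441 values 381 stayed within 1 standard deviation of a difference between arrays, computed from the replicate spots, and 60 moved beyond it. That limit is narrower than the 2 standard deviations used for the spot spread above. Of 13 ratios called at 2-fold, 11 were called under all 7, 0 were gained and 2 were lost: Cfd in HFHFr-FA against HFHFr-F at 0.96 with median centring, and Fgf21 in HFHFr-N against control at -0.91 with normexp and quantile normalization. The latter left 1 gene called in that pair. Not all 7 alternatives could move these ratios freely. No member was flagged or below background, so keeping outlier spots or dropping the detection filter left all 63 unchanged. Averaging probes could change only Fgf21 and Angptl6. The deposited values and median centring changed only the constant of each array. Across alternatives Fgf21 in HFHFr-FA against HFHFr-F ran from 1.88 to 2.05, Gdf15 in HFHFr-F against control from 1.73 to 1.86 and Cfd in HFHFr-NA against HFHFr-N from -1.77 to -1.64. With 1.5-fold in place of 2-fold the genes called were 5 in HFHFr-F against control, 5 in HFHFr-FA against HFHFr-F, 4 in HFHFr-N against control and 3 in HFHFr-NA against HFHFr-N. At that fold 23.3%, 18.6%, 8.02% and 11.3% of all genes were called. The shares called at 2-fold were 3.25%, 1.91%, 0.538% and 0.625% with normexp and quantile normalization, and 10.9%, 8.63%, 6.44% and 7.37% with no detection filter. In HFHFr-N against HFHFr-F, HFHFr-FA against control and HFHFr-NA against control they were 1.81%, 1.79% and 0.856%, then 9.54%, 9.59% and 7.84%. The normexp setting added an offset of 50 to the signals. Without the detection filter all 28630 genes entered each pair, those below background on both arrays included. The part of these settings in the shares was not tested. The sign of 11 ratios depended on the setting, 6 of them of Ahsg. The median of all genes in HFHFr-F against control was -0.08, and 0.02 after cyclic loess, and list values are given under the 75th percentile scaling only. No paired analysis was possible because each group is 1 array, and for the same reason leaving out a replicate or fitting the slide as a block could not be done.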
